A study of Homo sapiens with 30 samples.

Results

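The question here was what the lowest dose of an extract of Soshiho-tang already does to RNA levels in lung carcinoma cells, compared with other herbal extracts given at the same dose. The comparison used 8 of the 30 libraries of the series. They were A549 cells, an established human lung carcinoma line, kept for 24 h with 20 µg/mL of an ethanol extract. Soshiho-tang 20 µg/mL had 3 libraries, Yijin-tang 20 µg/mL had 3 and Okbyeongpung-san 20 µg/mL had 2 (replicates 2 and 3), so 3 libraries stood against 5. Soshiho-tang, Yijin-tang and Okbyeongpung-san are multi-herb formulas of Korean medicine. The libraries were taken by extract and dose in the sample labels. The comparison itself was chosen with earlier results of these data known. The same 3 extracts at 100 and 500 µg/mL, with the same numbers of libraries, and 3 libraries of cells given solvent alone (vehicle, 0.1% DMSO per the labels, with another percentage in the series text) served for comparison. All cells were of 1 line, and the labels do not state if replicates came from separate cultures. All p-values therefore rest on library-to-library spread alone, which may be technical.

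The genes that differed at this dose were targets of the aryl hydrocarbon receptor (AhR), so its working is given first as background. AhR is a transcription factor that waits in the cytosol with chaperones, binds flat aromatic ligands such as dioxin, combustion products and many plant compounds, moves to the nucleus and pairs with ARNT. The pair binds DNA elements with the core GCGTG and turns on a small set of genes, among them the cytochrome P450 enzymes CYP1A1 and CYP1B1, which oxidise such ligands, and 2 feedback inhibitors, the ADP-ribosyltransferase TIPARP and the AhR repressor AHRR. In airway epithelium this response is best known as the reaction to cigarette smoke.

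The 8 libraries held between 25285603 and 34843759 counts, and mitochondrially encoded messenger RNAs took 6.65% to 8.91% of them. All 9 epithelial genes that mark A549 cells were at 1 CPM (counts scaled to normalised library size) or more on average. None of the 7 endothelial markers was. Of the other lists, 3 of 7 fibroblast, 2 of 8 immune, 1 of 8 alveolar type 2 and 3 of 12 hepatocyte markers were. The other marker lists gave no separation of the groups, for example a summed level of 27.2 to 28.5 CPM of alveolar type 2 markers with Soshiho-tang and 24.2 to 28.5 CPM with the others. In a principal component analysis of the 8 libraries the first component took 28.2% of the variance. It placed replicate 1 of Soshiho-tang (-7.1) and replicate 1 of Yijin-tang (-7.6) near both Okbyeongpung-san libraries (-9.3 and -8.4). The other libraries of Soshiho-tang (6.4 and 3.9) and of Yijin-tang (12.3 and 9.7) lay away from these. So Soshiho-tang and Yijin-tang did not form separate groups on this component. Replicate 3 of Okbyeongpung-san carries batch D in its title and the other 7 libraries batch E. What the letters stand for is not given in the sources used here.

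Upstream sequences of 3 AhR targets are shown with matches to the core letters of the element marked. Each is the 250 bases before the gene start in RefSeq (GRCh38.p14), written 5′ to 3′ on the gene's own strand, with GCGTG or its reverse complement CACGC in capitals. The windows are chr15:74725529-74725778 (minus strand) for CYP1A1, chr3:156674340-156674589 (plus strand) for TIPARP and chr5:321464-321713 (plus strand) for AHRR.
CYP1A1: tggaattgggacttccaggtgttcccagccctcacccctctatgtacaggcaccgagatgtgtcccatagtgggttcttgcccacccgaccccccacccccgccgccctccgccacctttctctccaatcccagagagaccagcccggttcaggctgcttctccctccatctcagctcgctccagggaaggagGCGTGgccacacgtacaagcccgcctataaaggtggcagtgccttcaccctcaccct
TIPARP: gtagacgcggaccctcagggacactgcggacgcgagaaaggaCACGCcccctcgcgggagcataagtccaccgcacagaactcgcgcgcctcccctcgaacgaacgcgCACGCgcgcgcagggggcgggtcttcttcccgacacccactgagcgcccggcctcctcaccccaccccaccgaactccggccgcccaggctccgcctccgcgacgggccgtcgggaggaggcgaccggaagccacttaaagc
AHRR: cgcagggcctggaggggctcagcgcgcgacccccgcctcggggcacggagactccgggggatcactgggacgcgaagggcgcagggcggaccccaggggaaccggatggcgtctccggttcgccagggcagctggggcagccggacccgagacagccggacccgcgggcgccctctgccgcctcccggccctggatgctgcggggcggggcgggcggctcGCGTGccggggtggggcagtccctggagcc
The CYP1A1 and AHRR windows held 1 match each and the TIPARP window 2. At least 1 match, on either strand, was present in 31.9% of the 27305 promoter windows of that table and at least 2 in 10.3%, so a match is common and is a description of these letters, not a binding site. Of the other targets on the list, SLC7A5 and UGT1A6 had 1 match and NQO1, CYP1A2, LRAT and IL24 had none in the same window. The windows of CYP1B1 and ALDH3A1 were not analysed here.

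Against the other extracts at 20 µg/mL, 3 genes were higher with Soshiho-tang and none was lower. The genes were CYP1A1, CYP1B1 and TIPARP. A gene was called when its p-value from edgeR's quasi-likelihood F test, adjusted by Benjamini-Hochberg over the 17459 genes tested, was below 0.05. The 3 calls are 0.0172% of the genes tested, and all 3 stand on the AhR list. The median log2 fold change over all genes was 0.0035. At an unadjusted p below 0.05 there were 336 genes (1.92%), 162 higher (0.928%) and 174 lower (0.997%). Between the 2 comparators there were 847 (4.85%). These 336 genes are therefore not taken as further differences. All 3 Soshiho-tang libraries lay above all 5 others in 181 genes (1.04%) and below them in 154 (0.882%). With no filter on low counts the same test called 55 genes, the 3 named ones among them, and 29 of the 55 had no symbol. DESeq2 called 3 genes, the same ones.

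**Figure D1:**
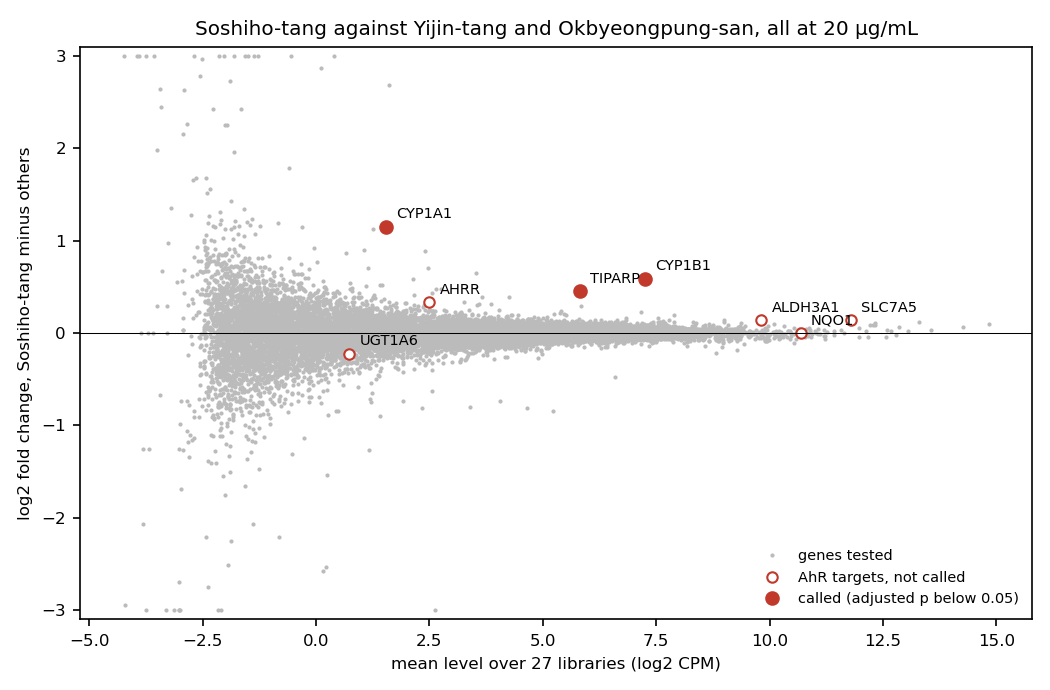
Each point is 1 of the 17459 genes tested, with its mean level over the 27 fitted libraries (log2 CPM) on the horizontal axis and the log2 fold change of Soshiho-tang against the other extracts at 20 µg/mL on the vertical axis, where values beyond 3 in either direction are drawn at 3. The filled points, CYP1A1 at 1.15, CYP1B1 at 0.59 and TIPARP at 0.45, are the called genes and lie above the cloud at their level, while the open points are AhR targets that were not called.

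CYP1A1 (ENSG00000140465, protein coding, chr15:74719542-74725610, minus strand), the enzyme most used as a readout of AhR activity, showed the largest difference of the 3. Its levels were 3.04, 3.09 and 3.12 CPM in the Soshiho-tang libraries, from 80, 103 and 100 counts. The Yijin-tang libraries gave 1.58, 1.38 and 1.96 CPM and the Okbyeongpung-san libraries 1.37 and 0.982 CPM. Every Soshiho-tang library was thus above every other library, with no overlap, and the 3 Soshiho-tang values lay close together. The means were 3.08 ± 0.0424 CPM (SD, n = 3) and 1.45 ± 0.354 CPM (SD, n = 5). The log2 fold change was 1.15 ± 0.15 (SE), a 2.22-fold difference with a 95% interval of 0.84 to 1.46 on the log2 scale (adjusted p = 0.000551 in edgeR's quasi-likelihood test). This is a transcript of low abundance in these cells, read from 26 to 103 counts per library.

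CYP1B1 (ENSG00000138061, protein coding, chr2:38066973-38109902, minus strand), a related enzyme that also acts on oestrogens, had the smallest adjusted p. It stood at 162, 165 and 168 CPM with Soshiho-tang. With Yijin-tang it stood at 117, 116 and 108 CPM, and with Okbyeongpung-san at 105 and 107 CPM. The gap between the lowest Soshiho-tang and the highest other library exceeded the range within either set. The log2 fold change was 0.59 ± 0.05 (SE; interval 0.48 to 0.70; adjusted p = 2.35e-06, edgeR), or 1.5-fold. CYP1B1 overlaps CYP1B1-AS1 and RMDN2 on the opposite strand and RMDN2-AS1 on its own, and the strand setting of the counting is not stated. CYP1B1-AS1 had only 10 to 14 counts in the 8 libraries, with a log2 fold change of -0.06 ± 0.28.

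TIPARP (ENSG00000163659, protein coding, chr3:156673235-156706770, plus strand), which modifies AhR with ADP-ribose and damps its activity, had 57.7, 59.1 and 56.9 CPM with Soshiho-tang. Yijin-tang gave 43.9, 47.2 and 43.1 CPM and Okbyeongpung-san 37.9 and 42.0 CPM, again without overlap. The log2 fold change was 0.45 ± 0.07 (SE; interval 0.31 to 0.59; adjusted p = 0.00368, edgeR), or 1.37-fold. The call was lost without replicate 2 of Okbyeongpung-san (0.41, adjusted p = 0.118) and without replicate 2 of Soshiho-tang (0.43, adjusted p = 0.0779). It held in the other 16 of 18 alternative settings, and the direction held in all 18. TIPARP overlaps TIPARP-AS1 on the opposite strand, which had 11 to 21 counts in the 8 libraries.

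AHRR (ENSG00000063438, protein coding, chr5:304176-438291, plus strand), which competes with AhR for ARNT, did not pass the test. It had 5.96, 5.37 and 5.55 CPM with Soshiho-tang, 5.22, 4.78 and 4.23 CPM with Yijin-tang and 3.87 and 4.53 CPM with Okbyeongpung-san. The Soshiho-tang libraries were all above the others, but the gap was narrow. The log2 fold change was 0.33 ± 0.11 (SE; unadjusted p = 0.00521, adjusted p = 1.00, edgeR). AHRR overlaps PDCD6 on the same strand, so reads in the shared span have an uncertain assignment. Its RefSeq start, like those of TIPARP and CYP1A1, lies inside the longer span given by GENCODE. The sequence windows shown for these genes therefore lie wholly or partly inside those spans.

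The AhR list held 11 genes, of which 8 had enough counts to be tested. Of these 8, 3 were called higher and none lower, 5 were higher at an unadjusted p below 0.05, and 5 had all 3 Soshiho-tang libraries above the 5 others. Over all genes the shares were 0.0172% called, 0.928% higher at that unadjusted p and 1.04% with all 3 libraries above. The list was chosen with earlier results of these data known. The list's median log2 fold change was 0.23, against 0.0035 for all genes. SLC7A5, an amino acid transporter subunit, was the fifth of the 5 genes with non-overlapping sets, at 0.14 ± 0.05 (unadjusted p = 0.0191, edgeR). Its libraries gave 3710, 3750 and 3530 CPM with Soshiho-tang, 3470, 3520 and 3080 CPM with Yijin-tang and 3370 and 3250 CPM with Okbyeongpung-san. These sets nearly touch at 3520 and 3530 CPM. The vehicle libraries, at 3710 to 3820 CPM, lay with the Soshiho-tang ones or above. Against vehicle SLC7A5 gave -0.04 ± 0.06 with Soshiho-tang, -0.17 ± 0.06 with Yijin-tang and -0.19 ± 0.07 with Okbyeongpung-san, none of which passed. Detoxification genes that AhR shares with other regulators did not pass. NQO1, a quinone reductase, averaged 1680 CPM in both sets with an interval of the log2 difference from -0.09 to 0.09. ALDH3A1, an aldehyde dehydrogenase, gave 0.14 ± 0.11 and UGT1A6, a glucuronosyltransferase whose exons other UGT1A genes share, gave -0.22 ± 0.19. CYP1A2, LRAT and IL24 were too low to test, with at most 1, 7 and 5 counts in any library.

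The genes of the receptor and its partners showed no difference that passed the test. AHR gave a log2 fold change of -0.03 ± 0.09, its partner ARNT -0.01 ± 0.06 and the related ARNT2 0.04 ± 0.05. Their 95% intervals all lay between -0.21 and 0.16.

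Each comparator was then taken alone. Against Okbyeongpung-san 20 µg/mL the same 3 genes were called (0.0172% of genes), with log2 fold changes of 1.39 ± 0.20 for CYP1A1 (adjusted p = 0.00362), 0.64 ± 0.07 for CYP1B1 (adjusted p = 5.47e-05) and 0.54 ± 0.09 for TIPARP (adjusted p = 0.0126, edgeR). Without replicate 3 of Okbyeongpung-san, the batch D library, 1 call was left in that comparison, CYP1B1. Against Yijin-tang 20 µg/mL 1 gene was called (0.00573%), CYP1B1 at 0.54 ± 0.06 (adjusted p = 0.000125). CYP1A1 there gave 0.92 ± 0.16 (adjusted p = 0.0686) and TIPARP 0.37 ± 0.08 (adjusted p = 0.285, edgeR). Without replicate 3 of Yijin-tang, the highest of its CYP1A1 values, CYP1A1 was called as well, and DESeq2 called all 3 genes against Yijin-tang. No gene was called between the 2 comparators by edgeR's quasi-likelihood test (0%), with 847 genes at an unadjusted p below 0.05 and 1 gene called by DESeq2. For CYP1A1 the difference of Yijin-tang from Okbyeongpung-san was 0.48 ± 0.22 (unadjusted p = 0.0371, adjusted p = 0.917). These 3 comparisons share libraries, so their values are given side by side only.

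**Figure D2:**
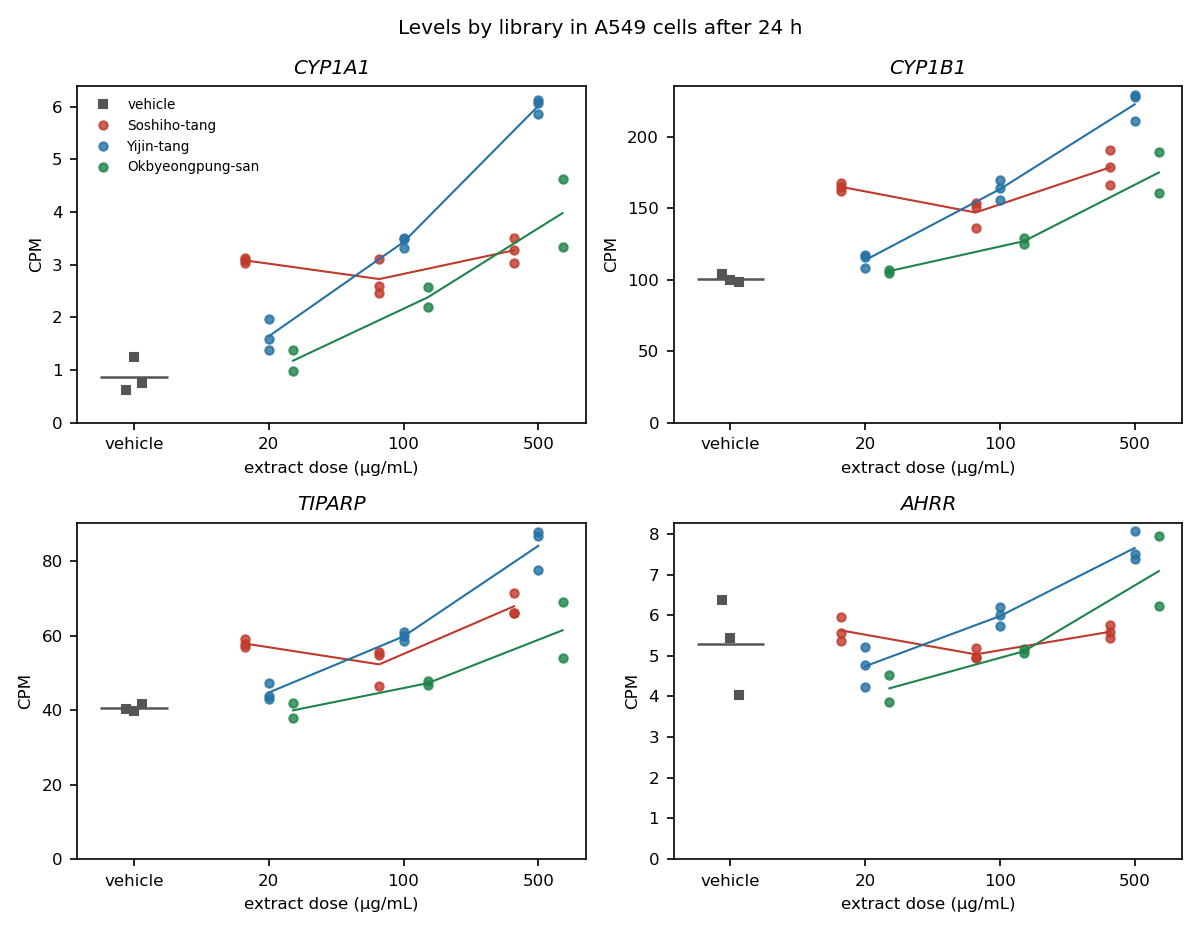
Levels (CPM) of CYP1A1, CYP1B1, TIPARP and AHRR in each library, by extract dose (20, 100 and 500 µg/mL, evenly spaced categories), with lines through the group means and squares for vehicle. The Soshiho-tang points at 20 µg/mL stand above those of the other extracts, CYP1A1 at 3.04 to 3.12 CPM, and the Yijin-tang points rise to 5.86 to 6.12 CPM at 500 µg/mL.

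The same contrast at higher doses used other libraries. At 100 µg/mL no gene was called between Soshiho-tang and the other extracts (0% by edgeR's quasi-likelihood test, 773 genes at an unadjusted p below 0.05, 6 called by DESeq2). CYP1A1 stood at 3.11, 2.47 and 2.6 CPM with Soshiho-tang, 3.50, 3.48 and 3.31 CPM with Yijin-tang and 2.57 and 2.19 CPM with Okbyeongpung-san, so the sets overlapped. The log2 fold changes were -0.07 ± 0.14 for CYP1A1, 0.03 ± 0.06 for CYP1B1 and -0.02 ± 0.07 for TIPARP.

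At 500 µg/mL 3359 genes differed (19.2%), 1690 higher and 1669 lower with Soshiho-tang, and 2212 without replicate 2 of Soshiho-tang 500 µg/mL. Of the 3 genes called at 20 µg/mL only CYP1A1 was among them, with the opposite sign. Its levels were 3.03, 3.28 and 3.51 CPM with Soshiho-tang, below the 6.07, 5.86 and 6.12 CPM of Yijin-tang, and overlapped the 4.62 and 3.34 CPM of Okbyeongpung-san. The log2 fold change was -0.58 ± 0.13 (adjusted p = 0.00251, edgeR). CYP1B1 gave -0.14 ± 0.06 (adjusted p = 0.0753), TIPARP -0.08 ± 0.07 and AHRR -0.40 ± 0.10 (adjusted p = 0.00788).

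The change of the contrast between the doses was itself tested as an interaction, the Soshiho-tang difference at 500 minus that at 20 µg/mL. It passed in 1276 genes (7.31%), and in 2480 without replicate 3 of Okbyeongpung-san 500 µg/mL, 821 without replicate 2 of Soshiho-tang 500 µg/mL and 834 without replicate 2 of Soshiho-tang 20 µg/mL. CYP1A1 gave -1.74 ± 0.20 (adjusted p = 2.21e-06), CYP1B1 -0.73 ± 0.08 (adjusted p = 7.74e-07), TIPARP -0.54 ± 0.10 (adjusted p = 0.000619) and AHRR -0.73 ± 0.15 (adjusted p = 0.00255, edgeR). Within each extract, 500 against 20 µg/mL gave for CYP1A1 a log2 fold change of 0.09 ± 0.15 with Soshiho-tang (interval -0.22 to 0.40), 1.88 ± 0.15 with Yijin-tang and 1.77 ± 0.21 with Okbyeongpung-san. For CYP1B1 the values were 0.11 ± 0.06, 0.97 ± 0.06 and 0.72 ± 0.08. TIPARP was higher at 500 µg/mL in all 3 extracts, by 0.23 ± 0.07 (adjusted p = 0.0293), 0.91 ± 0.07 and 0.62 ± 0.09. So the Soshiho-tang levels of both enzymes at 20 µg/mL were already near those at 500 µg/mL. Those of the other extracts were lower at 20 than at 500 µg/mL. For CYP1B1 and TIPARP the Soshiho-tang libraries at 100 µg/mL lay below those at 20 µg/mL. CYP1B1 stood at 162 to 168 CPM at 20, 136 to 154 at 100 and 166 to 191 at 500 µg/mL. TIPARP stood at 56.9 to 59.1, 46.5 to 55.5 and 66.1 to 71.4 CPM in the same order.

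Against vehicle the 3 genes were called with Soshiho-tang 20 µg/mL. The vehicle libraries gave 0.627, 1.24 and 0.751 CPM for CYP1A1, from 12, 25 and 16 counts, 104, 99.8 and 98.4 CPM for CYP1B1 and 40.3, 39.9 and 41.7 CPM for TIPARP. The log2 fold changes of Soshiho-tang 20 µg/mL were 1.81 ± 0.20 (adjusted p = 8.05e-06), 0.71 ± 0.06 (adjusted p = 3.60e-07) and 0.51 ± 0.08 (adjusted p = 0.000398, edgeR). Yijin-tang 20 µg/mL gave 0.90 ± 0.21 for CYP1A1 (adjusted p = 0.00904), 0.17 ± 0.06 for CYP1B1 (adjusted p = 0.0749) and 0.14 ± 0.08 for TIPARP. Okbyeongpung-san 20 µg/mL gave 0.42 ± 0.25, 0.07 ± 0.07 and -0.02 ± 0.09, none of which passed. AHRR did not pass against vehicle, at 0.09 ± 0.12 with Soshiho-tang, and the vehicle libraries ran from 4.03 to 6.38 CPM.

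Over all genes, 1401 differed from vehicle with Soshiho-tang 20 µg/mL (8.02%), 1789 with Yijin-tang (10.2%) and 1773 with Okbyeongpung-san (10.2%). These 3 comparisons share the vehicle libraries, which had 19833144 to 22327652 counts and 10.5% to 10.9% mitochondrially encoded messenger RNA, apart from the extract libraries. The part of that gap in the calls was not tested. The counts depended on single libraries. For Soshiho-tang they were 512 and 661 without its replicates 1 and 2, and 714, 617 and 582 without vehicle replicates 1, 2 and 3. For Yijin-tang they were 551 without its replicate 3, and 1061, 892 and 876 without vehicle replicates 1, 2 and 3. For Okbyeongpung-san they were 468 and 259 without its replicates 2 and 3, where the lone library left is assumed to vary like the other groups, and 952 and 1044 without vehicle replicates 2 and 3.

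Outside the AhR list no list of pathway genes had a called member at 20 µg/mL. The NRF2 list of antioxidant genes had 22 members measured, none called, with a median of 0.01, and HMOX1, the haem-degrading enzyme, gave 0.03 ± 0.05. Cholesterol genes (25 measured, median -0.00, 0 called) included HMGCS1, an early enzyme of the synthesis, at -0.04 ± 0.06. Fatty acid synthesis had 14 measured and a median of 0.02, with the desaturase SCD at 0.01 ± 0.05. In this list and the NRF2 and cholesterol lists no member reached an unadjusted p below 0.05 by edgeR's quasi-likelihood test, and DESeq2 called the same 3 AhR targets and no other gene.

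Several lists with many calls at 500 µg/mL, where 19.2% of all genes were called, had none at 20 µg/mL. The integrated stress response, the programme of ATF4 and DDIT3 that follows amino acid shortage or protein misfolding, had 20 members measured. At 20 µg/mL none was called, the median was -0.02 and values ran from -0.10 to 0.17, with 1 member at an unadjusted p below 0.05, against 1.92% of all genes. At 500 µg/mL 17 of the 20 were called higher with Soshiho-tang, none lower, with a median of 0.89, against 19.2% of all genes called in either direction. STC2, a secreted glycoprotein, had 20.0, 19.4 and 18.7 CPM with Soshiho-tang 20 µg/mL and 17.7 to 20.8 CPM with the others, a difference of 0.03 ± 0.06, against 2.06 at 500 µg/mL. DDIT3, the transcription factor CHOP, had 7.82, 8.30 and 6.02 CPM and 7.50 to 8.34 CPM, a difference of -0.08 ± 0.11, against 1.86 at 500 µg/mL. The list of inflammatory and NF-kappa-B genes had 15 members measured, with no call and a median of 0.03 at 20 µg/mL, but its values ran from -0.16 for TNFAIP3, a feedback inhibitor, to 0.73 ± 0.54 for the chemokine CCL20, which was barely counted (means of 0.175 and 0.0963 CPM). Of this list 12 were higher and 1, CCL2, was lower at 500 µg/mL. In the stress response, ASNS, asparagine synthetase, gave -0.04 ± 0.05 and NIBAN1, a stress-induced inhibitor of cell death, 0.04 ± 0.14.

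Genes of cell division showed the same contrast between doses. None of the 25 mitosis genes was called at 20 µg/mL, where the median was -0.01 and values ran from -0.11 to 0.04. At 500 µg/mL the whole list of 25 was lower with Soshiho-tang, with a median of -0.30, again beside 19.2% of all genes called in either direction. MKI67, the proliferation marker Ki-67, had 631, 638 and 681 CPM with Soshiho-tang 20 µg/mL. Yijin-tang gave 681, 670 and 543 CPM and Okbyeongpung-san 645 and 660 CPM, so that the sets overlapped, and the difference was 0.02 ± 0.08. The 24 DNA replication genes had a median of -0.01 and no call at 20 µg/mL, and 17 were lower at 500 µg/mL. The 14 heat shock genes, which code for chaperones such as HSPA1A, had a median of 0.02 and no call at 20 µg/mL, and 12 were lower at 500 µg/mL with a median of -0.37. The share of all genes beside both counts is the same 19.2%. CDKN1A, the cell cycle inhibitor p21, gave 0.00 ± 0.07 and GDF15, a stress-induced cytokine, 0.08 ± 0.09.

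**Figure D3:**
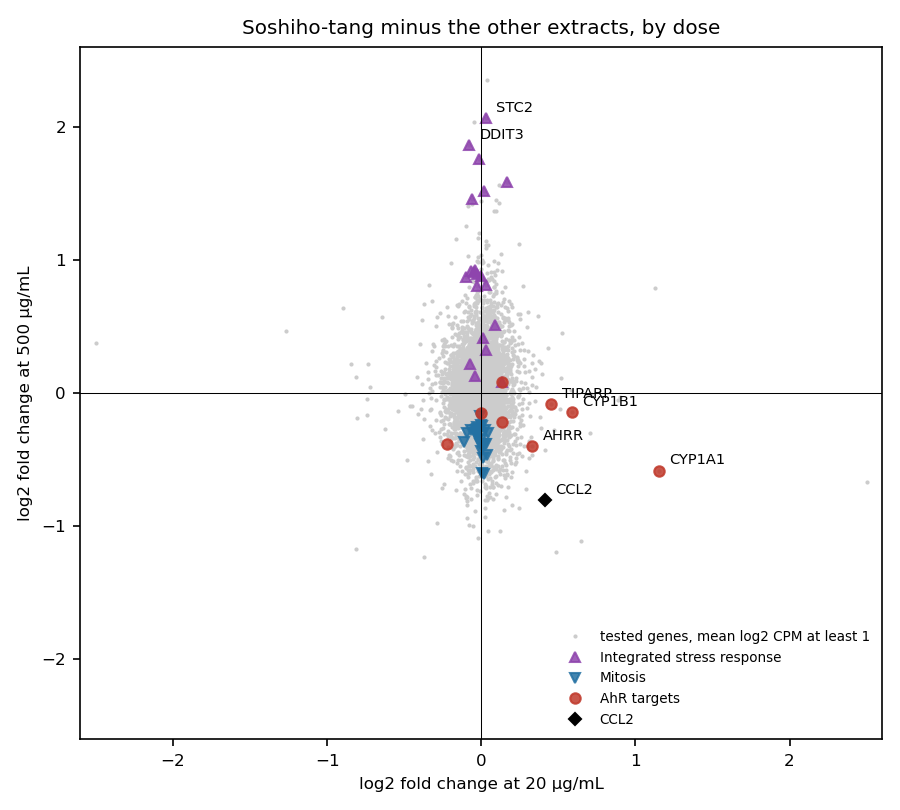
Log2 fold change of Soshiho-tang against the other extracts at 20 µg/mL (horizontal) and at 500 µg/mL (vertical) for tested genes whose mean level reached a log2 CPM of 1, and for the members of 3 lists. Stress response genes (triangles up) and mitosis genes (triangles down) line up along the vertical axis, near 0 at 20 µg/mL, while CYP1A1 lies at 1.15 and -0.58.

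Mucins and other secreted airway proteins had the second highest median of the lists with at least 3 members measured, 0.20 over 11 members, with 10 of 11 above 0. The median over all genes was 0.0035. No mucin list member passed the test and none reached an unadjusted p below 0.05 by edgeR's quasi-likelihood test. MUC5AC, a gel-forming mucin, stood at 224, 240 and 257 CPM with Soshiho-tang, at 224, 229 and 172 CPM with Yijin-tang and at 226 and 194 CPM with Okbyeongpung-san. Its difference was 0.20 ± 0.10 with overlapping sets. MUC5B, the second gel-forming airway mucin, gave 50.1, 54.5 and 73.5 CPM with Soshiho-tang, so 1 library stood well above the other 2, and 43.8 to 56.1 CPM with the others. Its difference was 0.30 ± 0.14, and it was called when no filter on low counts was used (adjusted p = 0.00209, edgeR). Both mucins were below vehicle with all 3 extracts at 20 µg/mL. MUC5AC gave -0.44 ± 0.11 with Soshiho-tang, -0.65 ± 0.11 with Yijin-tang and -0.64 ± 0.13 with Okbyeongpung-san. MUC5B gave -0.50 ± 0.16, which did not pass, -0.69 ± 0.16 and -0.90 ± 0.18 in the same order.

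The acute phase and immediate early genes gave no call. The fibrinogen chains, which A549 cells make in quantity, differed by 0.01 ± 0.04 for FGA and 0.06 ± 0.06 for FGB. The orphan receptor NR4A1 gave -0.11 ± 0.07. TXNIP had at most 7 counts in any library and was not tested. Nuclear-encoded genes of the respiratory chain had 2 of 24 members above 0 and a median of -0.05, ribosomal protein genes 3 of 25 and -0.04, and abundant non-coding RNAs 1 of 11 and -0.10, with no call in any of them. For mitochondrially encoded messenger RNAs 11 of 13 were above 0, with a median of 0.07. The median over all genes was 0.0035. Summed mitochondrial levels overlapped, at 69700 to 82400 CPM with Soshiho-tang and 65700 to 91300 CPM with the others. Those of the non-coding RNAs did too, at 1670 to 1980 and 1440 to 2220 CPM. Members of a list share the same libraries, so these counts are descriptions only.

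**Figure D4:**
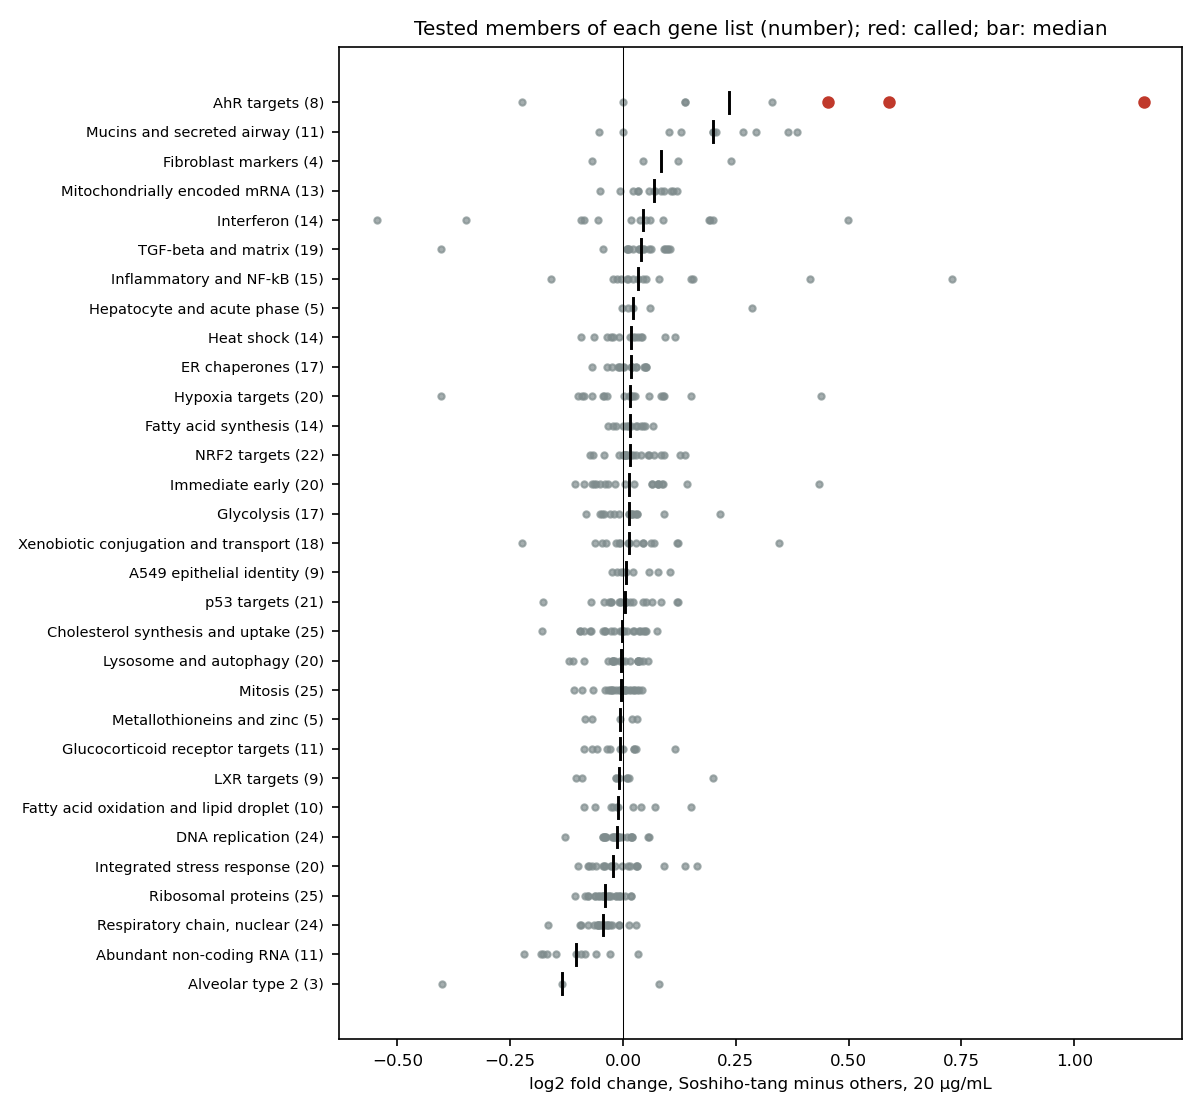
Log2 fold change of Soshiho-tang against the other extracts at 20 µg/mL for the tested members of each gene list with at least 3 of them (number in brackets), with a bar at the median and called genes in red. The called genes all belong to the AhR list, whose median is 0.23, and most other medians lie close to 0.

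Beyond the AhR targets, the genes with the smallest p-values and non-overlapping sets are given as values that did not pass. CCL2, a chemokine that draws monocytes (chr17:34255218-34257203, plus strand), had 4.74, 5.28 and 5.24 CPM with Soshiho-tang, 3.55, 3.90 and 3.97 CPM with Yijin-tang and 3.99 and 3.70 CPM with Okbyeongpung-san. The difference was 0.41 ± 0.09 (adjusted p = 0.718, edgeR), and the vehicle libraries, at 4.76, 4.81 and 5.07 CPM, lay with the Soshiho-tang ones. Others on the higher side were GCNT1, which branches O-glycans, at 0.38 ± 0.11, the caveolar protein CAVIN2 at 0.25 ± 0.08, ALG14, which acts in N-glycan synthesis, at 0.22 ± 0.06, and ATF6, a sensor of unfolded protein, at 0.13 ± 0.05. On the lower side ADAM8, a membrane protease, gave -0.46 ± 0.14, the choline kinase CHKB -0.28 ± 0.07, the circadian factor TEF -0.32 ± 0.11 and the non-coding SNHG4 -0.24 ± 0.08. Each gene of this group other than CCL2 had an adjusted p of 1.00 by edgeR's quasi-likelihood test. CHKB overlaps the readthrough gene CHKB-CPT1B, and SNHG4 overlaps MATR3, on the same strand, so their reads have an uncertain assignment. VIPR1, a receptor for vasoactive intestinal peptide (chr3:42489299-42537573, plus strand), fell outside the rule for named genes because of its low level and was singled out after its values were seen. It had 1.82, 2.22 and 1.75 CPM with Soshiho-tang and 0.769 to 1.58 CPM with the others, a difference of 0.87 ± 0.18 (adjusted p = 0.390, edgeR). Without a filter on low counts it was called (adjusted p = 0.00687).

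The width of the intervals bounds these negative results. The median standard error of the log2 fold change was 0.09 over all genes and 0.07 over the 11411 genes with a mean of at least 4 CPM. For 13398 genes (76.7%) the whole 95% interval lay within a 1.5-fold change in either direction, and for 15706 (90.0%) within a 2-fold change. A gene without a call is therefore not shown to be equal between the extracts, and differences inside its interval remain possible. These shares are not a limit of detection, as TIPARP was called at 1.37-fold.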

How the data were processed

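Messenger RNA libraries were made with a directional kit and read as 100 bp pairs, per the labels' protocols. The authors deposited expected counts for each gene, estimated with RSEM 1.3.3 after FastQC 0.11.9, Trim Galore 0.6.5 and STAR 2.7.3a, per the submitters' processing notes. Annotation release and strand setting are not given in the sources used here. The table held 60675 identifiers and 30 further columns, all empty, which were left out. Values were rounded, normalised with TMM and filtered with filterByExpr, leaving 17459 genes, of which 15573 had a symbol. All groups of 2 or more libraries (27 libraries, 10 groups) entered 1 fit by group means in edgeR 4.0.16 (R 4.3.3) with glmQLFit and glmQLFTest, two-sided. The common dispersion was 0.00474, a biological coefficient of variation of 6.89%. The other extracts at a dose are the average of the 2 comparator group means. The SE is the size of the log2 fold change over the root of F, and CPM use TMM-scaled totals. Gene positions come from GENCODE release 29. The test was also run on simulated data with independent libraries. These had no batch or replicate structure, so that run does not cover such structure.

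Named genes were up to 15 called genes per direction that had a symbol, reached a mean log2 CPM of 1 and showed non-overlapping sets, filled up to 10 by smallest p-value, plus called list members and a fixed panel. Receptor genes, antisense partners and members at the ends of lists were added. The comparison, the 33 gene lists and the panel were chosen with earlier results of these data known. Alternatives were DESeq2 1.42.0 and its size factors, no filter, fewer groups in the fit, a batch term, a replicate block, equal weights and leaving out libraries. The comparisons of Yijin-tang and Okbyeongpung-san with vehicle, and fits without vehicle or without replicate 2 of Okbyeongpung-san 500 µg/mL, were added after seeing the data. Soyo-san has 1 library per dose and was not tested.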

Additional observations from a re-analysis of the deposited data

Results flagged for a closer look

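The difference between Soshiho-tang and the other extracts changed between 20 and 500 µg/mL in 19 of the genes described, by edgeR's interaction test, and each value below is the log2 difference at 500 minus that at 20 µg/mL. Among AhR targets it was -1.74 for CYP1A1, -0.73 for CYP1B1, -0.54 for TIPARP and -0.73 for AHRR. Of genes whose sets did not overlap at 20 µg/mL, CCL2 gave -1.22 (0.41 at 20 and -0.80 at 500 µg/mL, adjusted p = 1.89e-06), VIPR1 -1.53, CAVIN2 -0.48 and ALG14 -0.32, while CHKB gave 0.42 and MTRF1, a mitochondrial release factor, 0.34. For these genes and the AhR targets the values at 20 µg/mL entered their choice, and only the 500 µg/mL libraries are independent of it.

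Genes that were level between the extracts at 20 µg/mL made up the rest. Stress response genes gave 2.31 for NIBAN1, 2.03 for STC2, 1.94 for DDIT3 and 0.96 for ASNS, and GDF15 gave 0.91 and CDKN1A 0.37. The value was -0.63 for MKI67, -0.57 for FGA and -0.64 for FGB. Level between the extracts does not mean equal to vehicle. With Soshiho-tang 20 µg/mL against vehicle, MKI67 gave -0.36 ± 0.09 and FGA 0.27 ± 0.05, and both were called. The other genes of this group were not called there. Causes were not tested.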

How the results depend on the processing

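Between Soshiho-tang and the other extracts at 20 µg/mL, 3 genes were called in the full fit, 2 to 3 with a library left out, and 55 without a filter on low counts (30 higher, 25 lower, 53 of them genes that also passed the filter; the cause was not tested). CYP1A1 and CYP1B1 were called in all 18 alternatives run (2 of them leave out the same library), TIPARP in 16, and of 51 named genes no called one changed sign, while 16 that were not called did. Without the filter the counts were 57 against Yijin-tang, 94 against Okbyeongpung-san, 163 between these extracts and 117 at 100 µg/mL. DESeq2 gave 3, 4, 1 and 6. Against Yijin-tang the count was 2 with a batch term or without vehicle in the fit and 3 without replicate 2 of Okbyeongpung-san 500 µg/mL. Fits of only the groups compared, which have fewer samples, called 1868 genes at 500 µg/mL, 2993 for Soshiho-tang 20 µg/mL against vehicle and 4647 for Okbyeongpung-san against vehicle, where a batch term gave 1169. With a library left out the ranges were 1 to 2 against Yijin-tang, 1 to 3 against Okbyeongpung-san, 0 to 0 between these and at 100 µg/mL, 2212 to 4695 at 500 µg/mL, 821 to 2480 for the change between doses, and 512 to 1108, 551 to 2070 and 259 to 1183 for Soshiho-tang, Yijin-tang and Okbyeongpung-san against vehicle.

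Same-numbered libraries did not all deviate together, so the numbers were not taken as pairs: deviations correlated at 0.263, 0.179 and -0.359 for Soshiho-tang with Yijin-tang (replicates 1, 2 and 3), at 0.167 and 0.204 for Soshiho-tang with Okbyeongpung-san and at -0.047 and -0.148 for Yijin-tang with Okbyeongpung-san (replicates 2 and 3). With the replicate number as a block 3 genes were called at 20 µg/mL, 1 against Yijin-tang, 4 against Okbyeongpung-san, 0 between these, 0 at 100 and 3667 at 500 µg/mL, 1523 for the change between doses, and 1637, 2140 and 2309 against vehicle.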

Other observations

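Soyo-san, the remaining formula of the series, had 1 library per dose, in batch D, so it entered no test. At 20 µg/mL it had 0.992 CPM of CYP1A1, from 28 counts, 105 CPM of CYP1B1, 40.4 CPM of TIPARP and 3.97 CPM of AHRR, each below every Soshiho-tang library at that dose. Its CYP1A1 was 2.22 CPM at 100 and 6.68 CPM at 500 µg/mL, its CYP1B1 133 and 210 CPM, its TIPARP 49.6 and 73.2 CPM and its AHRR 5.31 and 9.36 CPM. At 500 µg/mL the 4 values lay above those of Soshiho-tang 500 µg/mL, where the libraries gave 3.03 to 3.51 CPM of CYP1A1. CCL2 was 4.39 CPM with Soyo-san 20 µg/mL, between the Soshiho-tang and the other libraries.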
